A study of Drosophila melanogaster with 14 samples.

Results

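The genes described here are 10 neural genes of Drosophila melanogaster and were chosen by name. They are the neuronal genes cac, para, RyR, Appl, elav and brp and the neural progenitor genes mira, pros, dpn and insc, 10 of the 16727 genes in the deposited count table. They were chosen because loss of l(3)mbt in the fly brain gives tumours, which raises the question of how far such genes move when the same protein is depleted in ovarian cells. RNA was sequenced from cultured ovarian somatic cells (OSCs), a fly line derived from the follicle cells that surround the germline, 48 hours after RNAi. The groups were a knockdown (KD) of L(3)mbt, a KD of Lint-O (CG2662), a KD of Lint-1 and a control KD of EGFP, a jellyfish protein that these cells do not make, with 2 libraries each. No other treatment, allele or strain is named by the labels, and all 4 groups share the culture and the RNAi procedure. Nothing in the labels ties the duplicates of a group to separate cultures, and the p-values therefore measure only how far these libraries scatter, which may be technical.

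L(3)mbt binds chromatin through the MBT domains, named after the malignant brain tumours of the fly mutants in which the family was found. Neurons and their precursors rely on largely separate sets of genes. Voltage-gated channels, synaptic proteins and RNA-binding proteins of the ELAV family serve mature neurons. Neuroblasts, the neural stem cells of the fly, divide asymmetrically and use adaptor proteins such as Miranda and Inscuteable to send fate determinants into a single daughter cell. Many of these proteins also act in other tissues, RyR in muscle for example.

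Reads on genes came to between 18293791 and 20978039 per library. The RNAi targets were lower in the libraries that carry their labels. The l(3)mbt transcript stood at 99.3 ± 4.79 CPM in L(3)mbt KD, against 186.5 ± 1.13 CPM in EGFP KD (SD, n = 2 each), so the depletion was partial (edgeR adjusted p = 0.000439). Lint-O (edgeR adjusted p = 7.76e-05) and Lint-1 (edgeR adjusted p = 3.83e-05) were also lower in their own knockdowns. Levels are TMM-normalised CPM, reads of a gene relative to the library's total, and adjusted p-values are Benjamini-Hochberg values of edgeR's two-sided quasi-likelihood test over 8244 genes. A gene is called changed at an adjusted p under 0.05. Of 11 follicle cell markers, 10 could be matched and had reads in every library, at widely different levels. Among the highest were tj, between 196.6 and 337.8 CPM, and piwi, between 477.4 and 699.8 CPM. The lowest were cas at 0.314 to 1.18 CPM, slbo at 0.314 to 1.55 CPM and Wnt4 at 0.943 to 4.58 CPM. Of 9 neuron markers, 4 passed the low-count filter. They were elav at 16.5 to 31.1 CPM, futsch at 5.45 to 28.8 CPM, cac at 3.88 to 17.9 CPM and Appl at 1.66 to 5.71 CPM. The other 5 were low or absent, with 2 to 14 reads of nSyb per library, at most 6 of brp, Syt1 or para, and none of fne. Of 6 neuroblast markers, insc stood at 8.54 to 21.5 CPM, mira at 1.21 to 6.86 CPM and wor at 0.943 to 2.67 CPM, while pros had at most 5 reads in any library, dpn at most 2 and ase none.

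Of the 10 genes, 6 passed the low-count filter (cac, RyR, Appl, elav, mira and insc) and 4 did not (para, brp, pros and dpn). The 4 untested genes had next to no reads in any group. The voltage-gated sodium channel gene para (X, 16455027 to 16533096, dm6) had 5 and 0 reads in L(3)mbt KD, 2 and 0 in Lint-O KD, 4 and 6 in Lint-1 KD, and 2 and 4 in EGFP KD. For brp (2R, 9503765 to 9541565), which encodes the scaffold of the presynaptic active zone, the reads were 2 and 0 in L(3)mbt KD, 5 and 0 in Lint-O KD, 0 and 0 in Lint-1 KD, and 4 and 0 in EGFP KD. Both genes were thus close to or under the limit of 3 reads that a count of 0 allows, which is 0.139 to 0.166 CPM depending on the library. The homeodomain gene pros (3R, 11328480 to 11407627), whose product switches neuroblast daughters to differentiation, had 2 and 5 reads in L(3)mbt KD, 0 and 0 in Lint-O KD, 0 and 2 in Lint-1 KD, and 0 and 2 in EGFP KD. The neuroblast self-renewal repressor gene dpn (2R, 8228971 to 8232330) had 4 reads in all, 2 in a Lint-1 KD library and 2 in an EGFP KD library. Differences between groups in these 4 genes were not detectable at this depth, and intervals and floors of this kind cover counting error only.

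**Figure D1:**
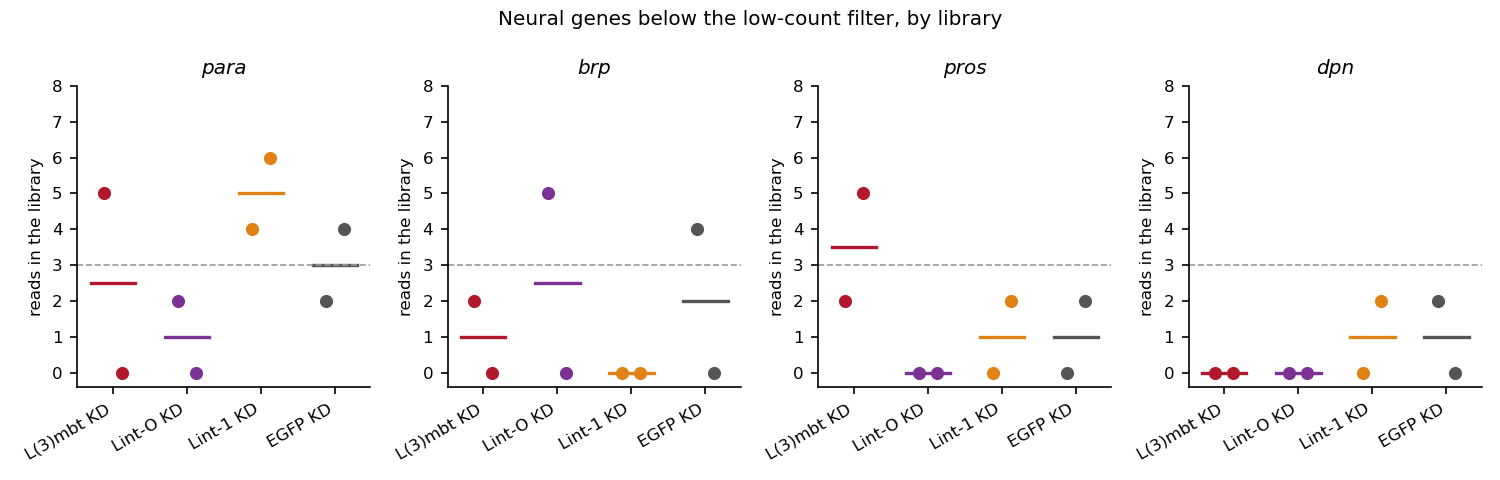
Reads per library (vertical axis) of the 4 genes that did not pass the low-count filter, with points for libraries, bars for group means and a dashed line at 3 reads. No library holds more than 6 reads of any of them.

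Among the 6 tested genes, 2 were higher in L(3)mbt KD than in EGFP KD, none in Lint-O KD and 2 in Lint-1 KD, and none was lower in any knockdown. Over all 8244 tested genes the shares called higher were 9.58% in L(3)mbt KD, 5.2% in Lint-O KD and 8.41% in Lint-1 KD, and the shares called lower were 1.31%, 0.255% and 1.25% in the same order of knockdowns. The genes called differed between knockdowns, cac and RyR in L(3)mbt KD and Appl and mira in Lint-1 KD, but the direct comparison of those knockdowns called none of the 4. The median log2 fold change of the 6 tested genes was 0.66 in L(3)mbt KD, -0.01 in Lint-O KD and 1.20 in Lint-1 KD, beside -0.01 over all tested genes in each. The 3 comparisons share the EGFP KD libraries. Where libraries of groups are said below to overlap or to lie apart, this describes single genes and carries no test. The share of all tested genes whose libraries lie apart in the same way is not given here. In RNA from whole cultures, a change in the number of cells that express a gene and a change in its RNA per cell cannot be told apart.

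**Figure D2:**
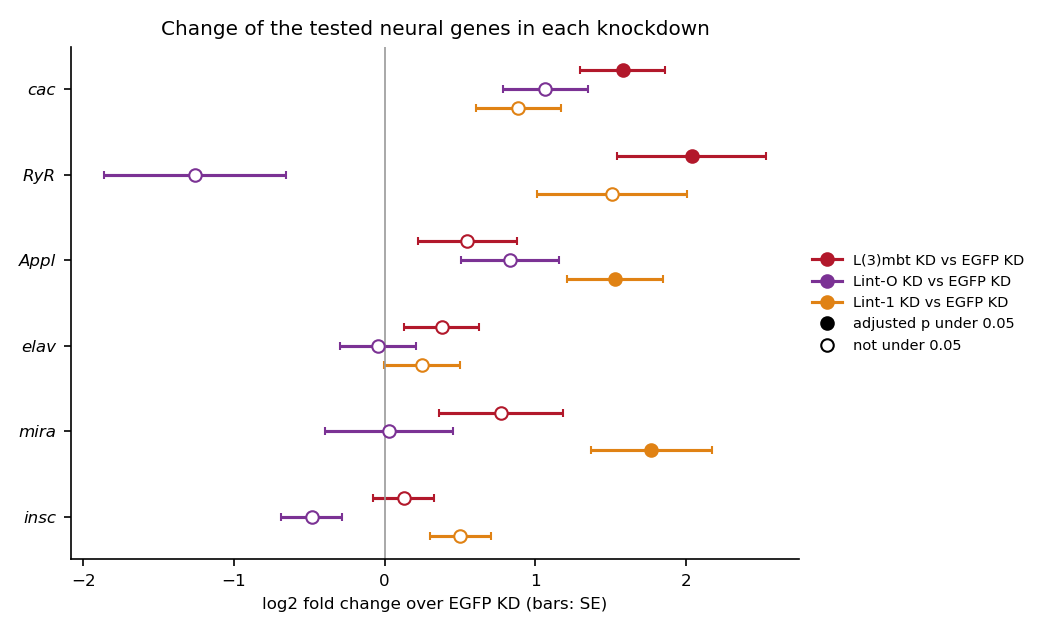
Log2 fold change over EGFP KD (horizontal axis, bars are SE) of the 6 tested neural genes in the 3 knockdowns, filled where the edgeR adjusted p is under 0.05. The filled points are cac and RyR in L(3)mbt KD and Appl and mira in Lint-1 KD.

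The gene cac (X, 11931280 to 11985087) encodes the pore-forming subunit of the presynaptic voltage-gated calcium channel. Its level was 17.9 and 14.1 CPM in L(3)mbt KD, 10.4 and 12.1 CPM in Lint-O KD, 10.6 and 9.16 CPM in Lint-1 KD, and 3.88 and 6.81 CPM in EGFP KD. All 6 knockdown libraries lay above both control libraries. In L(3)mbt KD cac rose 2.99-fold, or by 1.58 ± 0.281 on the log2 scale (SE, edgeR adjusted p = 0.00643), and was called in 12 of 12 alternatives with log2 fold changes between 1.25 and 2.04. In Lint-O KD the log2 fold change of 1.07 (SE 0.281) did not pass the test (edgeR adjusted p = 0.0711). It passed under 5 of 12 alternatives, among them DESeq2 (adjusted p = 0.016) and the fit without EGFP KD replicate 2 (edgeR adjusted p = 0.0252), and over the 12 the adjusted p ran up to 0.346. The log2 fold change of 0.89 (SE 0.281) in Lint-1 KD did not pass either (edgeR adjusted p = 0.0920). It passed under 4 of 12 alternatives, with DESeq2 at 0.0432 and without EGFP KD replicate 2 at 0.0326, and the adjusted p ran up to 0.319. By level the groups ran from L(3)mbt KD through Lint-O KD and Lint-1 KD to EGFP KD. The neighbours L(3)mbt KD and Lint-O KD did not overlap but did not pass the test (edgeR adjusted p = 0.412), and Lint-O KD and Lint-1 KD overlapped.

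The ryanodine receptor gene RyR (2R, 8860364 to 8888097) encodes the channel that releases calcium from the endoplasmic reticulum. Its level was 5.13 and 5.81 CPM in L(3)mbt KD, 0.681 and 0.420 CPM in Lint-O KD, 3.44 and 4.14 CPM in Lint-1 KD, and 0.554 and 2.08 CPM in EGFP KD. The L(3)mbt KD and Lint-1 KD libraries lay above both control libraries, while those of Lint-O KD lay on either side of the lower control library. The control libraries themselves differed, with 10 and 40 reads. In L(3)mbt KD RyR rose 4.11-fold, or by 2.04 ± 0.495 on the log2 scale (SE, edgeR adjusted p = 0.0301). That call was lost without EGFP KD replicate 1 (log2 fold change 1.41, edgeR adjusted p = 0.0869), without L(3)mbt KD replicate 2 (0.0871) and when only the 4 libraries compared were fitted (0.0877), and without EGFP KD replicate 2 the log2 fold change was 3.28. Neither the log2 fold change of 1.51 (SE 0.499) in Lint-1 KD (edgeR adjusted p = 0.103) nor that of -1.26 (SE 0.603) in Lint-O KD (edgeR adjusted p = 0.434) passed the test. Without EGFP KD replicate 2 the value in Lint-1 KD was 2.76 and passed (edgeR adjusted p = 0.0118), and it also passed with no low-count filter (edgeR adjusted p = 0.014), while over the 12 alternatives the adjusted p ran up to 0.364.

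RyR was also the only gene of the 6 called between knockdowns in edgeR. Of all tested genes, 0.704% were called between Lint-O KD and L(3)mbt KD, 0.0728% between Lint-1 KD and L(3)mbt KD and 1.18% between Lint-1 KD and Lint-O KD. RyR was lower in Lint-O KD than in L(3)mbt KD, at 0.550 ± 0.185 CPM against 5.47 ± 0.486 CPM (SD, n = 2 each), which is -3.30 ± 0.553 on the log2 scale (SE, edgeR adjusted p = 0.0385). Both Lint-O KD libraries lay below both L(3)mbt KD libraries. Without Lint-O KD replicate 1 (edgeR adjusted p = 0.381), Lint-O KD replicate 2 (0.256) or L(3)mbt KD replicate 2 (0.128) the call was lost, with log2 fold changes between -3.68 and -2.98. Lint-1 KD also held more RyR than Lint-O KD, by 2.77 ± 0.558 on the log2 scale (SE), which missed the threshold in edgeR (adjusted p = 0.0566) and passed in DESeq2 (adjusted p = 0.0008), with adjusted p from 0.000288 to 0.334 over the 12 alternatives. The order of levels was L(3)mbt KD, Lint-1 KD, EGFP KD and Lint-O KD, and the neighbours L(3)mbt KD and Lint-1 KD did not overlap but did not pass the test (edgeR adjusted p = 0.973). Lint-O KD and EGFP KD overlapped.

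Appl (X, 530501 to 579044) is the fly homologue of the amyloid precursor protein and in flies is known mainly from neurons. Its level was 2.74 and 2.21 CPM in L(3)mbt KD, 3.35 and 2.67 CPM in Lint-O KD, 4.09 and 5.71 CPM in Lint-1 KD, and 1.72 and 1.66 CPM in EGFP KD. Every knockdown library lay above both control libraries, and the Lint-1 KD libraries lay above all others. In Lint-1 KD Appl rose 2.89-fold, or by 1.53 ± 0.316 on the log2 scale (SE, edgeR adjusted p = 0.0155). The call was lost without EGFP KD replicate 1 (edgeR adjusted p = 0.0797), EGFP KD replicate 2 (0.0944) or Lint-1 KD replicate 2 (0.134). The log2 fold changes of 0.55 (SE 0.326) in L(3)mbt KD (edgeR adjusted p = 0.347) and of 0.83 (SE 0.323) in Lint-O KD (edgeR adjusted p = 0.281) did not pass. The order was Lint-1 KD, Lint-O KD, L(3)mbt KD and EGFP KD. The neighbours Lint-O KD and L(3)mbt KD overlapped, and Lint-1 KD and Lint-O KD did not overlap but did not pass the test (edgeR adjusted p = 0.272).

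The neighbouring gene on the X chromosome, elav (X, 509235 to 523226), lies 7274 bases from Appl with 1 gene of the table between them. It encodes the RNA-binding protein most used as a marker of neurons. Its level was 31.1 and 22.1 CPM in L(3)mbt KD, 16.5 and 23.1 CPM in Lint-O KD, 22.1 and 26.5 CPM in Lint-1 KD, and 17.2 and 23.7 CPM in EGFP KD, so that reads of elav were present in the control and every group overlapped the control. No change passed the test, with log2 fold changes of 0.38 (SE 0.250, edgeR adjusted p = 0.401) in L(3)mbt KD, -0.05 (SE 0.251, edgeR adjusted p = 0.992) in Lint-O KD and 0.25 (SE 0.250, edgeR adjusted p = 0.581) in Lint-1 KD. The order of group means, L(3)mbt KD, Lint-1 KD, EGFP KD and Lint-O KD, separated no pair of neighbours beyond their spread. Another gene of the ELAV family, Rbp9, is known from neurons and also from the germline, and stands in the germ cell list too. Rbp9 stood at 5.13 and 5.04 CPM in L(3)mbt KD, 4.24 and 5.51 CPM in Lint-O KD, 4.23 and 4.50 CPM in Lint-1 KD, and 1.22 and 1.66 CPM in EGFP KD. It rose in all 3, with log2 fold changes of 1.81 (edgeR adjusted p = 0.00365), 1.75 (0.00705) and 1.59 (0.00844) in that order of knockdowns. Without EGFP KD replicate 1 the Lint-O KD and Lint-1 KD calls were lost, as they were without replicate 2 of the knockdown itself, with adjusted p up to 0.0586 and 0.064. The remaining family member, fne, had no read in any library.

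**Figure D3:**
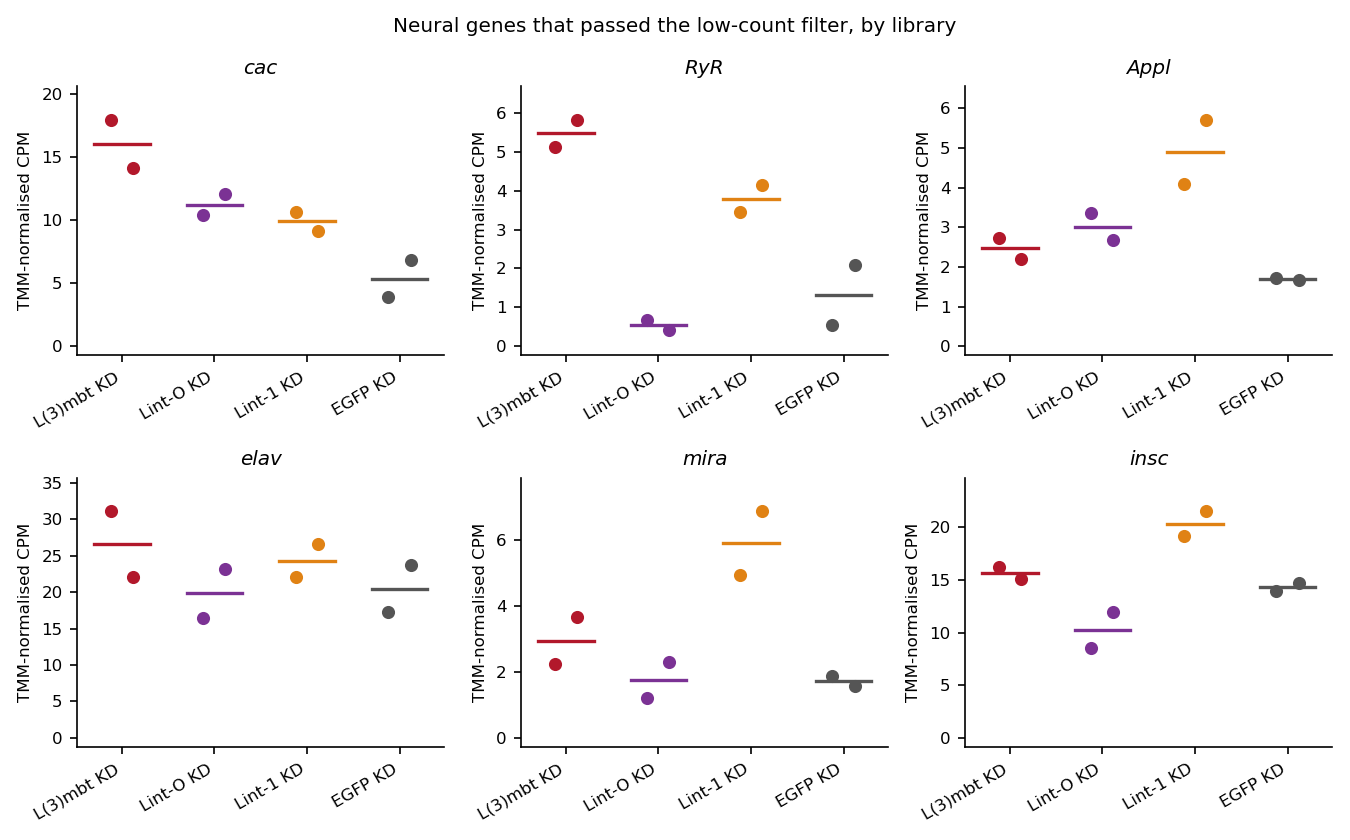
TMM-normalised CPM (vertical axis, from 0) of the 6 tested neural genes in each library, with a bar at each group mean. All knockdown points of cac and Appl lie above the control points, RyR is lowest in Lint-O KD, and mira and insc are highest in Lint-1 KD.

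The neural progenitor genes that could be tested were mira and insc. The adaptor protein Miranda (mira, 3R, 19931799 to 19935120) carries Prospero and other determinants to the basal side of dividing neuroblasts. Its level was 2.23 and 3.65 CPM in L(3)mbt KD, 1.21 and 2.31 CPM in Lint-O KD, 4.93 and 6.86 CPM in Lint-1 KD, and 1.88 and 1.56 CPM in EGFP KD. The Lint-1 KD libraries lay above all others, and those of Lint-O KD spanned the control. In Lint-1 KD mira rose 3.41-fold, or by 1.77 ± 0.401 on the log2 scale (SE, edgeR adjusted p = 0.0243). The call was lost when any of the 4 libraries compared was left out, with adjusted p of 0.0828 without EGFP KD replicate 1, 0.134 without EGFP KD replicate 2, 0.0511 without Lint-1 KD replicate 1 and 0.162 without Lint-1 KD replicate 2 in edgeR. In L(3)mbt KD the log2 fold change of mira was 0.77 (SE 0.411, edgeR adjusted p = 0.292), and in Lint-O KD it was 0.03 (SE 0.427, edgeR adjusted p = 0.999). The direct comparison of Lint-1 KD with Lint-O KD gave 1.74 (SE 0.399, edgeR adjusted p = 0.0799, DESeq2 adjusted p = 0.0196), and the adjusted p ran from 0.00388 to 0.469 over the 12 alternatives. By level the order was Lint-1 KD, L(3)mbt KD, Lint-O KD and EGFP KD, and L(3)mbt KD and Lint-O KD overlapped, as did Lint-O KD and EGFP KD. The neighbours Lint-1 KD and L(3)mbt KD did not overlap but did not pass the test (edgeR adjusted p = 0.65).

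Inscuteable (insc, 2R, 20821262 to 20836028) links the apical polarity complex to the machinery that orients the spindle. Its level was 16.2 and 15.1 CPM in L(3)mbt KD, 8.54 and 11.96 CPM in Lint-O KD, 19.2 and 21.5 CPM in Lint-1 KD, and 13.97 and 14.7 CPM in EGFP KD. The 4 groups did not overlap, with Lint-1 KD highest, L(3)mbt KD and EGFP KD next and Lint-O KD lowest. None of the differences passed the test in edgeR. The log2 fold change was 0.13 (SE 0.202, edgeR adjusted p = 0.750) in L(3)mbt KD, -0.48 (SE 0.205, edgeR adjusted p = 0.342) in Lint-O KD and 0.50 (SE 0.201, edgeR adjusted p = 0.171) in Lint-1 KD. The widest gap, Lint-1 KD against Lint-O KD, came to 0.99 on the log2 scale (SE 0.204, edgeR adjusted p = 0.0610, DESeq2 adjusted p = 0.00467), and the adjusted p ran up to 0.449 over the 12 alternatives.

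Counts of 0 called genes can be set beside less strict readings. Lint-O KD against EGFP KD called 0 of the 6 genes in edgeR and 1 (cac) in DESeq2, and 3 (cac, Appl and insc) had an unadjusted p under 0.05. Lint-1 KD against L(3)mbt KD called 0 in edgeR and 0 in DESeq2, with 3 (Appl, mira and cac) at an unadjusted p under 0.05. Lint-1 KD against Lint-O KD called 0 in edgeR and 3 (RyR, insc and mira) in DESeq2, with 4 at an unadjusted p under 0.05.

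Some of these genes overlap others in the genome, and whether reads were counted by strand is not stated. The span of mira overlaps Hs6st, which had 7.91 times as many reads as mira over the 8 libraries. Reads of Hs6st numbered 474 and 341 in L(3)mbt KD, 523 and 497 in Lint-O KD, 515 and 447 in Lint-1 KD, and 482 and 536 in EGFP KD. For insc the overlapping gene is sktl, with 6.11 times as many reads. Reads of sktl numbered 1854 and 1815 in L(3)mbt KD, 1529 and 1875 in Lint-O KD, 2112 and 1741 in Lint-1 KD, and 1552 and 1928 in EGFP KD. These are raw reads, not scaled to library size. The library with the most reads of sktl, Lint-1 KD replicate 1, also had the most reads on genes (20978039). Its lowest library was of Lint-O KD, the group in which insc was lowest, while the other Lint-O KD library lay between the control libraries. The part of these overlapping genes in the counts of mira and insc was not tested. Counts of both are uncertain for this reason, while the genes that overlap elav, para, pros, dpn and Appl had at most 58 reads in all.

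**Figure D4:**
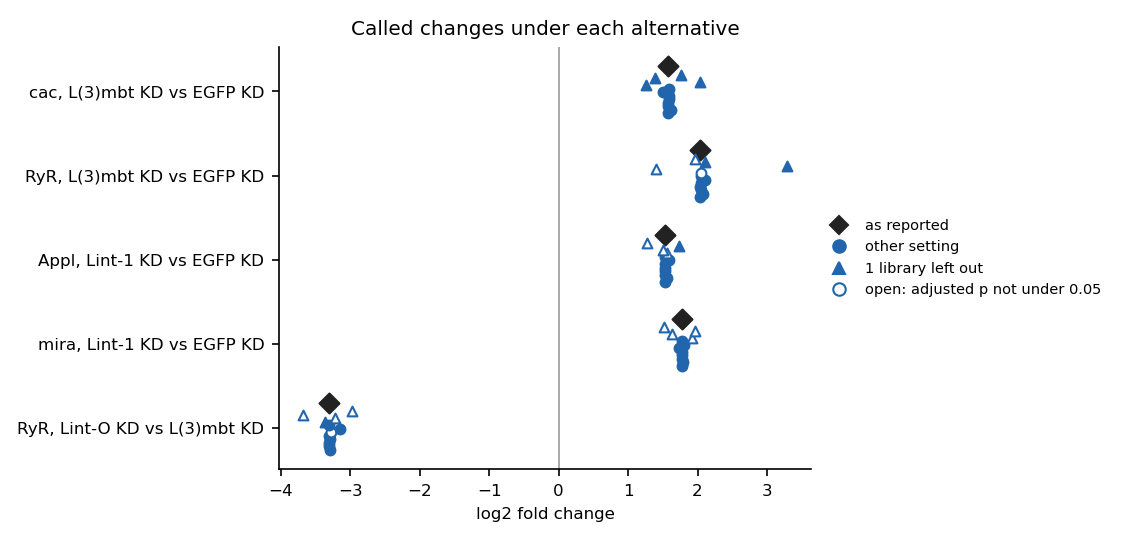
Log2 fold change (horizontal axis) of the 5 called changes as reported (diamonds), under other settings (circles) and with 1 library left out (triangles), open where the adjusted p is not under 0.05. The direction is the same throughout, and cac in L(3)mbt KD stays filled in all 12 alternatives.

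Across the 8 libraries the 6 tested genes followed more than 1 course. The highest Pearson correlations of log2 CPM were those of mira with insc (0.866) and of mira with Appl (0.82), and the lowest were those of cac with insc (0.042), mira (0.0602) and Appl (0.113). Correlations of cac with RyR (0.626) and with elav (0.625) lay between. These describe 8 libraries in 4 groups that share normalisation, and carry no test. Over all tested genes, the closest to cac were CG17801 (0.975), CG1667 (0.969) and CG42255 (0.969), which RefSeq names Sting and Cubn2 for the last 2. CG42255 averaged 24.5 CPM in L(3)mbt KD, 16.0 CPM in Lint-O KD, 13.5 CPM in Lint-1 KD and 1.30 CPM in EGFP KD. The closest to RyR were Gbeta13F (0.986), CG5987 (0.974) and CG11138 (0.967), and the closest to Appl were CG8713 (0.966), mip130 (0.954) and CG30403 (0.950). For mira they were CalpC (0.988), nod (0.977) and the follicle cell marker eya (0.977). The transcript of eya averaged 32.3 CPM in L(3)mbt KD, 21.4 CPM in Lint-O KD, 51.5 CPM in Lint-1 KD and 19.2 CPM in EGFP KD.

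The 10 genes can be set within the wider neural gene set, 9 lists covering channels, calcium handling, synapses, neuronal identity, receptors, neuropeptides, neuroblasts, asymmetric division and glia. Without the 10 genes these lists held 245 genes, of which 141 were tested. In L(3)mbt KD 20 were higher (14.2%, against 9.58% of all tested genes), 2 were lower and 119 did not pass, with a median log2 fold change of 0.10. In Lint-O KD 5 were higher (3.55%, against 5.2%), 1 was lower and 135 did not pass, with a median of -0.04. In Lint-1 KD 10 were higher (7.09%, against 8.41%), 2 were lower and 129 did not pass, with a median of -0.03. Genes almost without reads in EGFP KD, such as nAChRbeta3, Syt7, mGluR, tipE and Ilp8, passed the low-count filter only through knockdown libraries. Against EGFP KD such genes could be called higher but not lower. The shares of higher genes include them, both in the lists and over all tested genes. The counts of higher genes also depended on single libraries. In L(3)mbt KD the count was 5 without EGFP KD replicate 1, 11 without EGFP KD replicate 2 and 13 without L(3)mbt KD replicate 1. In Lint-O KD it was 2 without EGFP KD replicate 1 or Lint-O KD replicate 2, and in Lint-1 KD it was 6 whichever of the 4 libraries compared was left out.

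The nicotinic acetylcholine receptor subunit gene nAChRbeta3 stood at 23.5 and 25.3 CPM in L(3)mbt KD, 7.75 and 7.39 CPM in Lint-O KD, 8.28 and 9.85 CPM in Lint-1 KD, and 0.166 and 0.364 CPM in EGFP KD. It rose in all 3, with log2 fold changes of 6.48 (edgeR adjusted p = 7.63e-06), 4.79 (7.05e-05) and 5.05 (2.53e-05), and was called in 12 of 12 alternatives each time. Of 12 tested receptor genes, 3 rose in L(3)mbt KD, 2 in Lint-O KD and 1 in Lint-1 KD, where 1 fell. Those that rose were 25% of the list in L(3)mbt KD (9.58% of all tested genes), 16.7% in Lint-O KD (5.2%) and 8.33% in Lint-1 KD (8.41%), and without EGFP KD replicate 1 the count in L(3)mbt KD was 1. Another subunit gene, nAChRalpha4, averaged 10.5 ± 0.0628 CPM in L(3)mbt KD and 9.67 ± 2.27 CPM in Lint-O KD, against 4.90 ± 0.196 CPM in EGFP KD (SD, n = 2 each), with edgeR adjusted p of 0.0139 and 0.0380. Leaving out any EGFP KD library ended both calls, and leaving out Lint-O KD replicate 2 ended that in Lint-O KD. The metabotropic glutamate receptor gene mGluR rose in L(3)mbt KD, with 52 reads in the 2 libraries against 4 in EGFP KD (edgeR adjusted p = 0.0339), and lost the call without EGFP KD replicate 1 or L(3)mbt KD replicate 1. The serotonin receptor gene 5-HT1A fell in Lint-1 KD to 0.791 ± 0.0665 CPM, against 2.90 ± 0.893 CPM in EGFP KD (edgeR adjusted p = 0.0246), a call lost without EGFP KD replicate 2 or either Lint-1 KD library.

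Of 25 tested genes of the synaptic vesicle and active zone list, which holds cac, 6 rose in L(3)mbt KD, 1 in Lint-O KD and 3 in Lint-1 KD, and none fell. These were 24% of the list in L(3)mbt KD (9.58% of all tested genes), 4% in Lint-O KD (5.2%) and 12% in Lint-1 KD (8.41%), and without EGFP KD replicate 1 the count in L(3)mbt KD was 3. The synaptotagmin gene Syt7, a calcium sensor of vesicle fusion, rose in all 3 knockdowns and was called in 12 of 12 alternatives in each. It stood at 6.89 and 9.62 CPM in L(3)mbt KD, 5.14 and 5.09 CPM in Lint-O KD, 3.07 and 4.71 CPM in Lint-1 KD, and 0.222 and 0.208 CPM in EGFP KD. The log2 fold changes were 5.22 (edgeR adjusted p = 6.73e-05), 4.53 (0.000274) and 4.14 (0.000359). The neurexin gene Nrx-1, for a synaptic adhesion protein, rose in Lint-1 KD by 2.42 on the log2 scale (SE 0.378, edgeR adjusted p = 0.00354) and was called in 12 of 12 alternatives. Its rise in L(3)mbt KD (1.56, SE 0.386, edgeR adjusted p = 0.0332) lost the call when any 1 of the 4 libraries compared was left out. The small GTPase gene Rab3 (1.79, edgeR adjusted p = 0.0149) and the synaptogyrin gene Syngr (2.36, edgeR adjusted p = 0.0224) also rose in L(3)mbt KD, and both calls were lost without EGFP KD replicate 1. The gene comt, which encodes the ATPase NSF of membrane fusion, rose in L(3)mbt KD (0.65, edgeR adjusted p = 0.00791) and in Lint-1 KD (0.57, edgeR adjusted p = 0.0179), and its call in Lint-1 KD was lost when any 1 of the 4 libraries compared was left out. The control libraries had 8 reads of Syt7 and 10 of nAChRbeta3 in all, so the size of these folds rests on few control reads.

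Among 16 tested voltage-gated channel genes and their auxiliary subunits, 3 rose and 1 fell in L(3)mbt KD, none was called in Lint-O KD in edgeR (3 had an unadjusted p under 0.05, and DESeq2 called 1, cac) and 2 rose in Lint-1 KD. The shares that rose were 18.8% in L(3)mbt KD (9.58% of all tested genes) and 12.5% in Lint-1 KD (8.41%), and the share that fell in L(3)mbt KD was 6.25% (1.31%). The number that rose in L(3)mbt KD was 1 whichever of the 4 libraries compared was left out, and in Lint-1 KD it was 1 without Lint-1 KD replicate 1. Besides cac, the potassium channel gene KCNQ rose in L(3)mbt KD (0.74 on the log2 scale, SE 0.194, edgeR adjusted p = 0.0402) and in Lint-1 KD (1.40, SE 0.194, edgeR adjusted p = 0.00182). Only its call in Lint-1 KD held in 12 of 12 alternatives, and that in L(3)mbt KD was lost when any 1 of the 4 libraries compared was left out. The sodium channel subunit gene tipE rose in both knockdowns, with 55 reads in L(3)mbt KD and 91 in Lint-1 KD, against 8 in EGFP KD (edgeR adjusted p = 0.0453 and 0.0174). Its call in L(3)mbt KD was lost when any 1 of the 4 libraries compared was left out, and that in Lint-1 KD without EGFP KD replicate 2 or Lint-1 KD replicate 1. The inward rectifier gene Irk1 fell in L(3)mbt KD to 4.93 ± 0.131 CPM, against 11.8 ± 0.376 CPM in EGFP KD (SD, n = 2 each, edgeR adjusted p = 0.00979), a call lost without L(3)mbt KD replicate 2. In the calcium handling list, which holds RyR, 3 of 12 tested genes rose in L(3)mbt KD (25%, against 9.58% of all tested genes), and without EGFP KD replicate 1 none was called in edgeR (3 had an unadjusted p under 0.05). In edgeR none was called in Lint-O KD (1 at an unadjusted p under 0.05, and DESeq2 called 0) or in Lint-1 KD (3 at an unadjusted p under 0.05, and DESeq2 called 1, norpA). Beside RyR, the other two that rose were CaMKII, for a calcium-dependent kinase (64.4 ± 0.406 CPM in L(3)mbt KD, 31.5 ± 7.30 CPM in EGFP KD, edgeR adjusted p = 0.00766), and norpA, for a phospholipase C of the visual cascade (edgeR adjusted p = 0.0435). The call of CaMKII was lost without EGFP KD replicate 1, and that of norpA without L(3)mbt KD replicate 1 or any EGFP KD library.

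Of 30 tested asymmetric division genes, 3 rose in L(3)mbt KD, none was called in Lint-O KD in edgeR (1 had an unadjusted p under 0.05, and DESeq2 called 0) and 4, mira among them, rose in Lint-1 KD. The shares were 10% in L(3)mbt KD, near the 9.58% of all tested genes, and 13.3% in Lint-1 KD, against 8.41%. The count was 1 in L(3)mbt KD without EGFP KD replicate 1, and in Lint-1 KD it was 1 whichever of the 4 libraries compared was left out. The Notch inhibitor gene numb, a determinant handed to a single daughter cell, stood at 8.85 and 4.68 CPM in L(3)mbt KD, 2.73 and 2.52 CPM in Lint-O KD, 9.39 and 11.1 CPM in Lint-1 KD, and 2.66 and 2.13 CPM in EGFP KD. It was called in Lint-1 KD in 12 of 12 alternatives, at 2.09 ± 0.332 on the log2 scale (SE, edgeR adjusted p = 0.00387). In L(3)mbt KD it was called too (1.50, SE 0.334, edgeR adjusted p = 0.0201), but not without L(3)mbt KD replicate 1 or any EGFP KD library. The myosin VI gene jar rose in both, to 214 ± 16.7 CPM in L(3)mbt KD and 192 ± 6.66 CPM in Lint-1 KD, against 129 ± 2.31 CPM in EGFP KD (edgeR adjusted p = 0.00279 and 0.0115), and its call in L(3)mbt KD held in 12 of 12 alternatives. Gbeta13F, for a G protein beta subunit, rose in L(3)mbt KD (0.63, edgeR adjusted p = 0.00714), and the mitotic kinase gene aur rose in Lint-1 KD (0.50, edgeR adjusted p = 0.0471). Leaving out EGFP KD replicate 1 ended the call of Gbeta13F, and leaving out any 1 of the 4 libraries compared ended those of jar and aur in Lint-1 KD. Myosin VI, G proteins and Aurora kinases also work in many cells outside the nervous system. Of 13 tested neuroblast identity and temporal factor genes, nab was the 1 called in L(3)mbt KD (log2 fold change 0.77, SE 0.182, edgeR adjusted p = 0.0265), which is 7.69% of the list against 9.58% of all tested genes, a call lost without L(3)mbt KD replicate 2 or any EGFP KD library. None was called in edgeR in Lint-O KD (1 at an unadjusted p under 0.05) or Lint-1 KD (0 at an unadjusted p under 0.05), and DESeq2 called 0 in both.

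**Figure D5:**
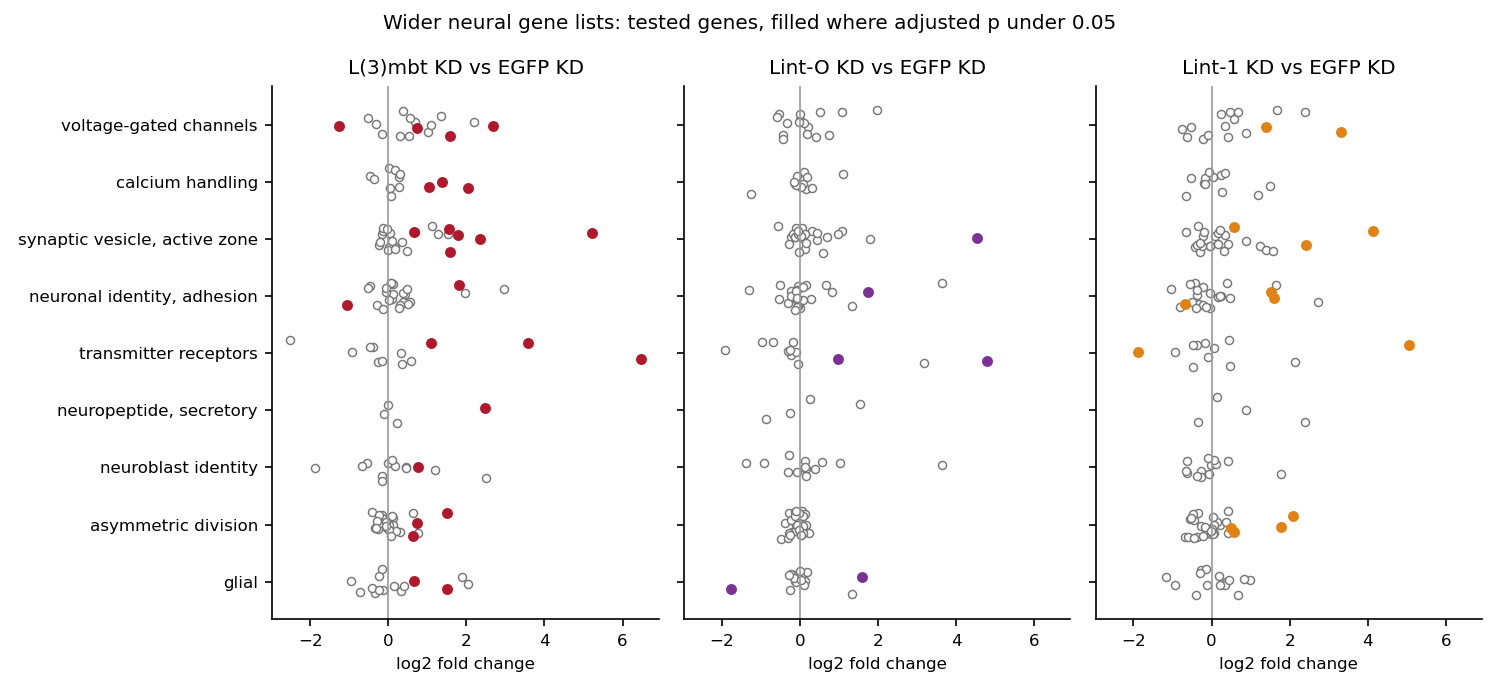
Log2 fold change over EGFP KD (horizontal axis) of the tested genes of the 9 neural lists, with cac, RyR, Appl, elav, mira and insc included in their lists and a panel per knockdown, filled where the edgeR adjusted p is under 0.05. Most points lie near 0, and nAChRbeta3 and Syt7 lie far to the right in every panel.

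In the remaining lists at most 2 genes of a list rose in any knockdown. For neuronal identity genes the shares that rose were 4.17% in L(3)mbt KD (9.58% of all tested genes), 4.17% in Lint-O KD (5.2%) and 8.33% in Lint-1 KD (8.41%). For glial genes they were 13.3% in L(3)mbt KD and 6.67% in Lint-O KD, and for neuropeptide genes 25%, 1 gene of 4, in L(3)mbt KD. Of 24 tested genes of neuronal identity, cytoskeleton and adhesion, Rbp9 rose in every knockdown. The adhesion gene Fas2 fell in L(3)mbt KD (-1.06 on the log2 scale, SE 0.290, edgeR adjusted p = 0.0478). In Lint-1 KD Appl rose and the guidance gene NetA fell (-0.68, SE 0.137, edgeR adjusted p = 0.0130). The calls of Fas2 and NetA were each lost on leaving out several single libraries, with adjusted p up to 0.216 and 0.115. Of 15 tested glial genes, nrm rose in L(3)mbt KD (1.51, SE 0.272, edgeR adjusted p = 0.00690) and in Lint-O KD (1.59, SE 0.272, edgeR adjusted p = 0.00811), calls lost without EGFP KD replicate 1. The midline glia gene wrapper rose in L(3)mbt KD (0.65, edgeR adjusted p = 0.0419) and the FGF receptor gene htl fell in Lint-O KD (-1.77, edgeR adjusted p = 0.0344). Of 4 tested neuropeptide genes, Ilp8 rose in L(3)mbt KD, with 59 reads against 10 in EGFP KD (edgeR adjusted p = 0.0473). The calls of wrapper, htl and Ilp8 were each lost without EGFP KD replicate 1, without EGFP KD replicate 2 and without replicate 2 of the knockdown, and that of nrm in Lint-O KD also without Lint-O KD replicate 2. Of 18 tested repressors known to act on neural genes, none was called in any knockdown in edgeR, with 2 at an unadjusted p under 0.05 in L(3)mbt KD, 0 in Lint-O KD and 1 in Lint-1 KD, and DESeq2 called 0.

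Markers of another cell type rose beside these genes. Of 9 germ cell markers, 7 were tested and 6 rose in each knockdown (85.7%), Rbp9 among them. Of all tested genes, 9.58% rose in L(3)mbt KD, 5.2% in Lint-O KD and 8.41% in Lint-1 KD. The germ cell share includes nos, which averaged 0.052 CPM in EGFP KD. It passed the low-count filter only through knockdown libraries and could be called higher but not lower against EGFP KD. The germ cell list was also chosen with earlier results of these data known, and its share carries no test. The summed level of the list was 213.7 to 223.2 CPM in L(3)mbt KD, 120.9 to 148.7 CPM in Lint-O KD and 93.3 to 98.3 CPM in Lint-1 KD, against 15.5 to 20.5 CPM in EGFP KD, and otu was at 0 in every library. Neuron markers summed to 52.7 to 81.6 CPM in L(3)mbt KD, 49.9 to 57.8 CPM in Lint-O KD and 47.1 to 47.6 CPM in Lint-1 KD, against 33.0 to 54.7 CPM in EGFP KD. Those of neuroblasts summed to 20.3 to 20.5 CPM in L(3)mbt KD, 10.7 to 16.9 CPM in Lint-O KD and 25.7 to 30.3 CPM in Lint-1 KD, against 17.3 to 18.3 CPM in EGFP KD. Of the muscle markers, which bear on RyR, 2 of 9 tested (Mlc2 and Prm) rose in L(3)mbt KD (22.2%). Act57B fell there (11.1%, against 1.31% of all tested genes). In Lint-1 KD Mlc2 rose (11.1%) and Act57B fell (11.1%, against 1.25%). The list summed to 144 to 220.7 CPM in L(3)mbt KD and 133.3 to 174.7 CPM in Lint-1 KD, against 171.4 to 238.2 CPM in EGFP KD. Of 6 tested hemocyte markers, Cg25C rose in L(3)mbt KD and Lint-1 KD (16.7% in each), and He was at 0 in every library. Of 10 tested follicle cell markers, eya and Wnt4 rose in L(3)mbt KD (20%) and eya in Lint-1 KD (10%). Glia markers had 2 of 10 tested called higher in L(3)mbt KD and 1 in Lint-O KD. The part of other cell types in the changes of cac, RyR, Appl and mira was not tested.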

How the data were processed

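The deposited table holds raw read counts per gene for 8 RNA-seq libraries, made from poly-A selected RNA with a stranded kit per the labels' protocols. HISAT2, HTSeq, edgeR and the build dm6 are named by the submitters' processing notes, while their versions, the annotation and the strand setting were not stated. Of 16732 entries, 16727 were genes and 5 were counter lines left out of library sizes and tests (no-feature reads took 14.96% to 18.51% of a library). The 6 ChIP and input samples were not analysed here. Symbols were looked up among RefSeq genes of that build (12512 current, 3996 through a synonym, 219 unmatched).

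Counts were filtered with filterByExpr, scaled with TMM and fitted with edgeR 4.0.16 in R 4.3.3 (glmQLFit over all 8 libraries on group alone, leaving 4 residual degrees of freedom). The quasi-likelihood test was run for 3 comparisons with EGFP KD and 3 between knockdowns. Alternatives were upper-quartile scaling or DESeq2 size factors, DESeq2 1.42.0 in place of edgeR, no filter, a stricter filter (1 CPM in 2 libraries and 50 counts), a replicate block, removal of a lowess trend on gene span (span 0.3), only the 4 libraries compared, and each library left out. Some of these fits were also run on simulated counts that had the same spread for every gene. These do not match the scatter of the duplicates here, and no result rests on that run. Duplicate libraries differed by more than sampling noise. The chi-square per degree of freedom was 50.8 in L(3)mbt KD and 21.4 to 25.1 in the other groups. The lowest and highest shares of no-feature reads were also those of the L(3)mbt KD libraries.

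Named genes were the 10 genes, the RNAi targets, up to 5 called genes per list and knockdown by size of change (with 1 CPM or more where higher), and the 3 tested genes closest to each called member by Pearson correlation. comt in L(3)mbt KD was added after its value was seen. The genes, lists and rules were chosen with earlier results of these data known.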

Additional observations from a re-analysis of the deposited data

Results flagged for a closer look

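Among the 6 tested genes and the 141 others tested in the 9 neural lists, edgeR's test of the difference itself called 6 genes between knockdowns. In Lint-O KD against L(3)mbt KD these were RyR and 2.13% of the 141, beside 0.704% of all tested genes. In Lint-1 KD against Lint-O KD they were 1.42% of the 141, near the 1.18% of all tested genes. Each call was lost on leaving out at least 3 of the 4 libraries compared, 1 at a time. RyR was lower in Lint-O KD than in L(3)mbt KD by a log2 fold change of -3.30 (SE 0.553, adjusted p = 0.0385). The same comparison gave -1.69 (SE 0.217, adjusted p = 0.0159) for nAChRbeta3, -0.69 (SE 0.114, adjusted p = 0.0377) for Gbeta13F and -0.65 (SE 0.113, adjusted p = 0.0435) for jar. nAChRbeta3 rose over EGFP KD in both knockdowns, while Gbeta13F and jar were called over EGFP KD in L(3)mbt KD. Lint-1 KD exceeded Lint-O KD by a log2 fold change of 1.43 (SE 0.194, adjusted p = 0.0107) for KCNQ and of 1.96 (SE 0.329, adjusted p = 0.0300) for numb. All 6 calls were lost without Lint-O KD replicate 1, and all 6 without Lint-O KD replicate 2. Those of RyR, nAChRbeta3, Gbeta13F and jar were lost also without L(3)mbt KD replicate 2 and with the replicate block, with adjusted p up to 0.381, 0.239, 0.381 and 0.435 over the 12 alternatives in that order of genes. Those of Gbeta13F and jar were lost too when only the 4 libraries compared were fitted, and that of jar with the gene-span trend removed. KCNQ lost its call without Lint-1 KD replicate 2 (adjusted p up to 0.165), and numb when any 1 of the 4 libraries was left out and with the replicate block (adjusted p up to 0.318). All 6 kept their direction in the 12 alternatives. Over all genes, Lint-O KD against L(3)mbt KD called 58, and 1 when either Lint-O KD library was left out, and Lint-1 KD against Lint-O KD called 97, and 5 without Lint-O KD replicate 1. Groups of 2 libraries do not allow a search for single outlying values.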

How the results depend on the processing

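Of the fold changes of the 6 tested genes under all alternatives and comparisons, 389 kept their direction and side of the threshold, 22 gained a call, 14 lost it and 7 changed direction. Those that changed direction were near 0: elav in Lint-O KD against EGFP KD was 0.041 with the gene-span trend removed and ran from -0.29 to 0.20 with 1 library left out, elav in Lint-1 KD against L(3)mbt KD ran from -0.38 to 0.15, and mira in Lint-O KD against EGFP KD was -0.031 with the replicate block and ran from -0.50 to 0.43. The number of neural genes called in L(3)mbt KD against EGFP KD (2) was 1 with only the 4 libraries compared, and in Lint-O KD (0) it was 1 with upper-quartile scaling, DESeq2, no filter and the gene-span trend removed. In Lint-1 KD (2) it was 4 with no filter, and 3 with DESeq2 and with the gene-span trend removed. Lint-O KD against L(3)mbt KD (1) gave 0 with the replicate block. Lint-1 KD against Lint-O KD (0) gave 3 with DESeq2, no filter and only the 4 libraries compared, and 2 with the gene-span trend removed. With 1 library left out the counts ran from 1 to 2 in L(3)mbt KD, 0 to 1 in Lint-O KD and 0 to 2 in Lint-1 KD against EGFP KD, and 0 to 1 in Lint-O KD against L(3)mbt KD.

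Over all genes, L(3)mbt KD against EGFP KD called 898, and 555 with only the 4 libraries compared. The count was 683 with the replicate block, 1085 with no filter and 1146 with the trend removed. Lint-O KD against EGFP KD called 450, from 339 (replicate block) to 545 (no filter) over the other settings. Lint-1 KD against EGFP KD called 796, from 593 (replicate block) to 1111 (no filter). Between knockdowns, settings are named where the count changed more than 1.5-fold. Lint-O KD against L(3)mbt KD called 58, and 227 with DESeq2, 281 with no filter, 10 with the replicate block, 110 with the trend removed and 35 with only the 4 libraries. Lint-1 KD against L(3)mbt KD called 6, and 51 with DESeq2, 56 with no filter and 18 with the trend removed. Lint-1 KD against Lint-O KD called 97, and 277 with DESeq2, 390 with no filter, 33 with the replicate block, 169 with the trend removed and 411 with only the 4 libraries. With 1 library left out, the counts ran from 532 to 1208 in L(3)mbt KD, 264 to 284 in Lint-O KD and 425 to 481 in Lint-1 KD against EGFP KD, from 1 to 118 for Lint-O KD and 3 to 8 for Lint-1 KD against L(3)mbt KD, and from 5 to 25 for Lint-1 KD against Lint-O KD. The cause was not tested. Correlations of same-numbered libraries ran from -0.377 to 0.356, so the replicate numbers marked no pairing common to all groups. Whether libraries of different numbers share a batch was not tested. Among the 10 genes the replicate block ended 1 call, RyR in Lint-O KD against L(3)mbt KD (edgeR adjusted p = 0.0934). It also ended calls of wider-list genes between knockdowns, as given above.

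Duplicates limit every call here, and para, brp, pros and dpn were too thinly covered for any comparison.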
